A study of Gallus gallus with 4 samples.

Results

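Solute carriers are the membrane proteins that move nutrients, transmitters and ions across the cell membrane and the membranes of organelles. The genes described here are those whose symbol is SLC followed by a number, a letter from A to E and a number, with the SLCO family of organic anion transporters included. Of 5294 genes that a probe of the array could be named for, 85 were such carriers, and 77 of these were well above background on all 4 arrays. Of a list of 46 carriers with a known role in the retina, 20 had a named probe, and all 20 passed. The RefSeq genes used for naming held 298 such symbols. Members without a named probe, among them SLC1A3, SLC17A7 and SLC12A5, were not analysed here, so class counts below are of measured members and not of whole classes.

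RNA came from chorioretinal tissue of chicks, that is the retina with the choroid behind it, cut as buttons 6 mm across on the temporal side of the optic nerve. The right eye wore a glass goggle from day 6 after hatching for 7 days, which induces myopia, while the left eye stayed bare, and tissue was taken on day 13. Light was normal or violet, with 12 hours of light a day. RNA of 4 eyes was mixed into a pool for each of the 4 groups (16 eyes of 8 chicks in all), with uncovered and covered eyes kept apart in each light, and each pool was read on 1 array. Uncovered and covered eyes of one light come from the same chicks, while the lights were given to separate chicks. The labels used here name no strain.

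In the retina, glutamate passes the light signal from photoreceptors to bipolar cells and on to ganglion cells, and its uptake by carriers ends each signal. Photoreceptors burn glucose to lactate, so glucose carriers bring fuel from the choroid through the pigment epithelium and monocarboxylate carriers take lactate away. Exchangers of sodium, calcium, potassium and protons set the calcium level of the outer segment and the pH of the tissue.

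The deposited sources do not agree on which array is which. The authors' value table gives the label covered violet light to the array that the scanner files call uncovered normal light, and the reverse for the other array of the pair. Correlations between table and scanner values over 43603 probes were 0.9997 and 0.9992 with these 2 labels crossed, against 0.9815 and 0.9813 with the labels as they stand. The uncovered violet-light and covered normal-light arrays carried the same label in both sources. Names below follow the scanner files, and each comparison also has a reading under the labels of the value table. By that reading, covered minus uncovered under normal light becomes normal minus violet light in covered eyes, and covered minus uncovered under violet light becomes normal minus violet light in uncovered eyes. Violet minus normal light becomes a goggle comparison with its sign turned, of the violet-light eyes where it was that of uncovered eyes, and of the normal-light eyes where it was that of covered eyes.

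Each group is 1 array, so no difference has a replicate check, and the number of arrays limits the precision. For 43 probes printed repeatedly and well above background, spots of a probe differed by a median SD of 0.04 in the log2 difference between a pair of arrays, a measure of the spots and not of the pools. The array called uncovered normal light correlated least with the others on average (0.9797 to 0.9884, against 0.9877 to 0.9926 among the other 3). It was at the ends in both directions, the lowest pool for 28 of the 77 carriers measured and the highest for 27. Over all 4807 genes it was lowest for 1844 and highest for 1744. Levels are log2 signals minus the array's 75th percentile, given in the order uncovered normal, uncovered violet, covered normal, covered violet, and they compare pools for a gene, not genes with each other. Markers of the labelled tissue were present, with 5 of 9 photoreceptor and 6 of 6 pigment cell markers measured, among them the cone transducin GNAT2 (7.09, 7.31, 7.31 and 7.50) and RPE65 (2.15, 2.20, 2.77 and 2.64). Genes of other tissues were present too, with a summed signal of 9 striated muscle genes of 0.77, 0.65, 24.4 and 2.34 times the 75th percentile and of 7 lens genes of 0.72, 10.4, 3.14 and 1.70. In pooled tissue, fewer cells of a type and less RNA per cell cannot be told apart.

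Most solute carriers differed little between the pools, and in each comparison their median lay next to that of all genes. Of the 77, 57 differed by under 0.5 on the log2 scale in all 4 comparisons, and 7 reached a difference of 1, which is 2-fold, in at least 1 of them. The shares of all genes at these cuts were not counted, so the counts do not set carriers apart from other genes. Of these 7, 6 are described singly, namely the glycine carrier SLC6A9, the amino acid carrier SLC38A4, the melanosome carrier SLC45A2, the endosomal sodium-proton exchanger SLC9A9, the mitochondrial ADP/ATP carrier SLC25A4 and the thyroid hormone carrier SLCO1C1. Among the 6, 4 had 1 passing probe, and the other 2 had probes at least 2-fold apart. Among the 31 members with agreeing probes, a set chosen after seeing the data, none reached 2-fold in any of the 4 comparisons. That set needs at least 2 passing probes under 2-fold apart, which leaves out all 7, so its result is no separate check. The share at 2-fold among all genes with agreeing probes was not counted.

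**Figure D1:**
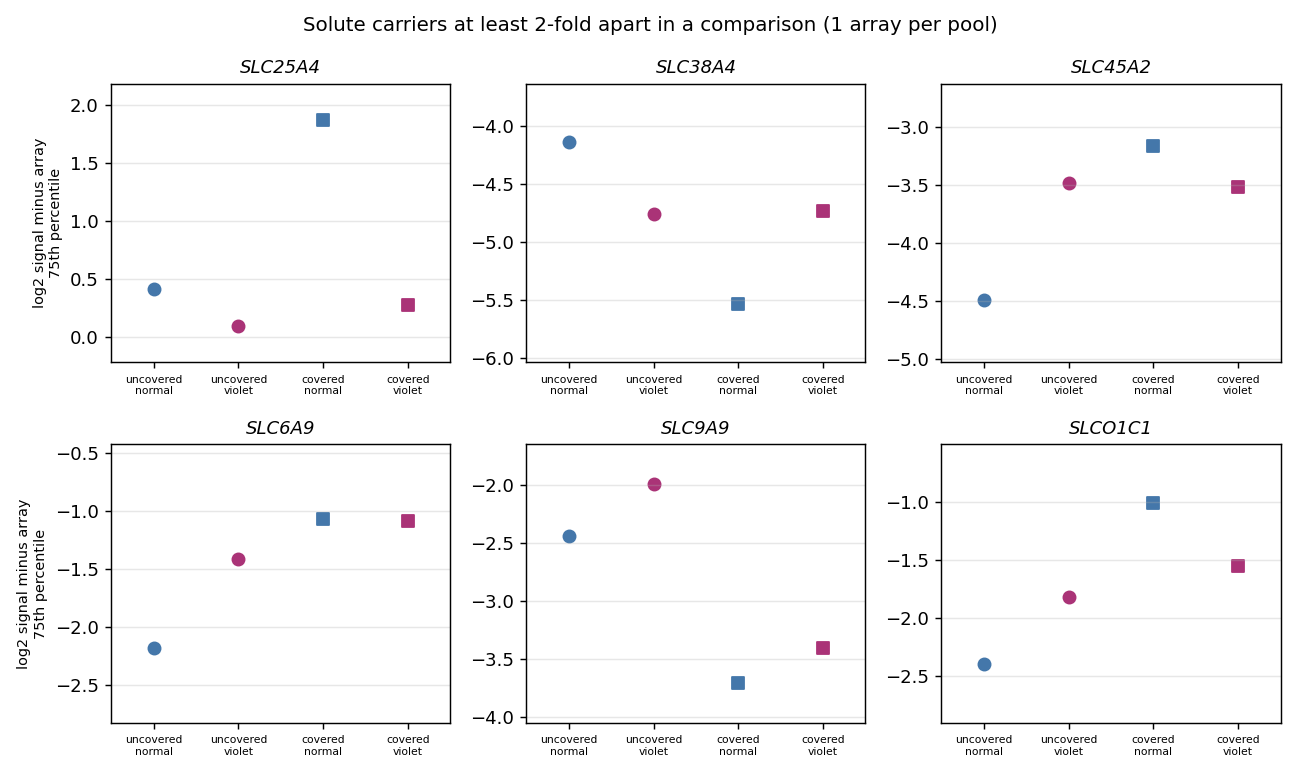
Level of 6 solute carriers that reached 2-fold in a comparison, 1 panel per gene, as log2 signal minus the array's 75th percentile (vertical axis, the same span of 2.4 in each panel) in each of the 4 pools (horizontal axis, scanner labels, blue for normal and purple for violet light, circles for uncovered and squares for covered eyes). SLC9A9 is the gene whose covered pools lie 2-fold below its uncovered pools in both lights. In SLC6A9, SLC45A2 and SLCO1C1 the uncovered normal-light pool is lowest, and in SLC38A4 it is highest.

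For goggles under normal light, 5 members were at least 2-fold higher in the covered pool, where 4.68% of all 4807 genes were, and 2 were at least 2-fold lower, where 1.41% of all genes were. Under violet light none was higher (0.395% of all genes) and 1 was lower (0.686% of all genes). For violet against normal light, 2 members were higher in uncovered eyes (1.23% of all genes) and none was lower (1.69%). In covered eyes none was higher (0.0832%) and 1 was lower (2.27%). The medians of the 77 members, 0.05, 0.04, -0.01 and 0.03 in the order of these comparisons, lay next to those of all genes (0.02, 0.05, -0.01 and 0.03).

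Only SLC9A9 passed 2-fold the same way for goggles in both lights, against 0.333% of all genes in the lower direction and in the higher direction alike. For light no member did so in both eyes, against 0.0208% of all genes higher and 0.811% lower. Under the labels of the value table, goggles gave 1 member higher (2.27% of all genes) and none lower (0.0832%) under normal light, and none higher (1.69%) and 2 lower (1.23%) under violet light. Light then gave 1 higher (0.686%) and none lower (0.395%) in uncovered eyes, and 2 higher (1.41%) and 5 lower (4.68%) in covered eyes. SLC9A9 becomes higher under violet light in both eyes by that reading, as were 0.333% of all genes, and no member passes 2-fold for goggles in both lights (0.811% of all genes higher and 0.0208% lower).

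Goggle differences in the 2 lights, which share no array, had the same sign for 58 of the 77 members (75.3%, against 74.6% of all genes). Both covered pools lay above both uncovered pools for 27 members and below them for 20 (35.1% and 26.0%, against 35.0% and 26.4% of all genes). For light, both violet-light pools lay above for 6 members and below for 10 (7.79% and 13.0%, against 11.3% and 12.2% of all genes), and 37 of 77 had the same sign in both eyes (48.1%, against 53.3% of all genes). Before scaling, by the scanner labels, both covered arrays were also dimmer than both uncovered arrays (75th percentiles of 797.5 and 883, against 2108 and 1325), and the part of this in the shared signs was not tested. By the labels of the value table, the arrays at 797.5 and 883 are both normal light and the others violet light. The counts for goggles and for light then trade places, with above and below exchanged.

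**Figure D2:**
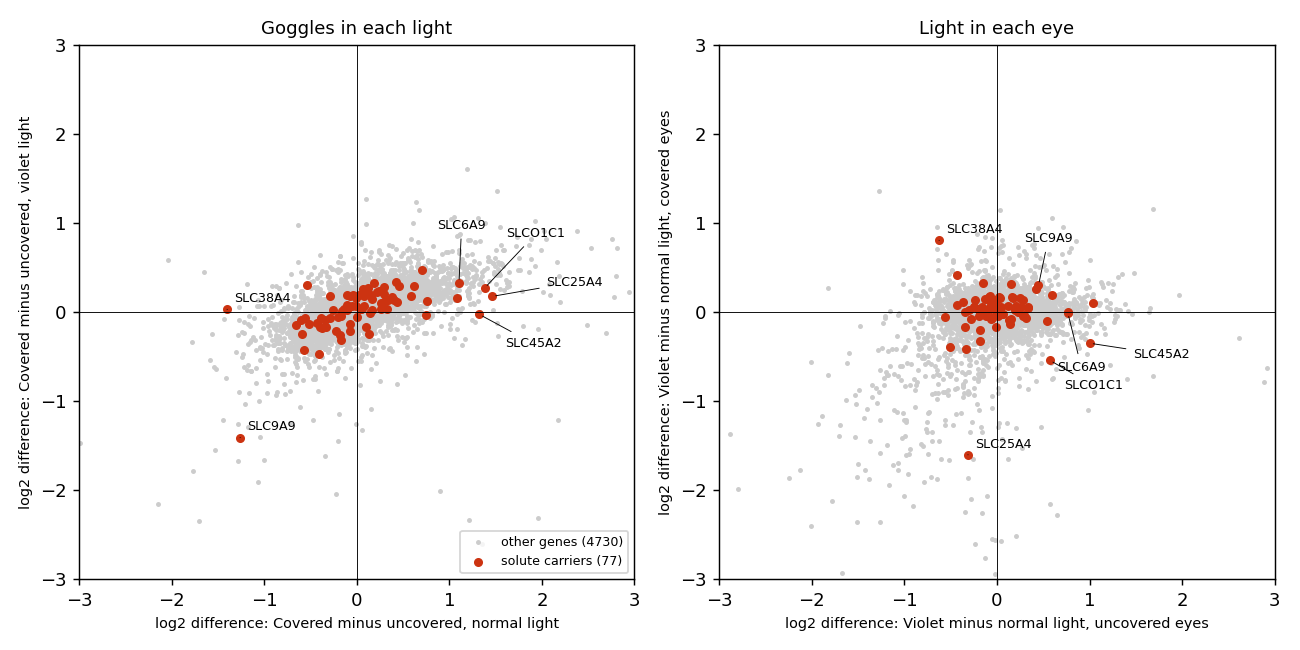
Log2 differences of the 77 solute carriers (red) and the 4730 other genes (grey), with goggles under normal light against goggles under violet light on the left and light in uncovered against light in covered eyes on the right (scanner labels, 1 point per gene, axes cut at 3 on either side, beyond which 18 and 14 other genes lie). The carriers sit within the cloud of all genes, with SLC9A9 low for goggles in both lights and SLC25A4 low for light in covered eyes alone.

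Carriers of glutamate were measured by 2 genes. SLC1A2, the glutamate transporter that in the mammalian retina sits on bipolar cells and cones, had levels of -0.24, -0.22, -0.81 and -0.64. Both covered pools lay below both uncovered pools, by 0.57 under normal and 0.42 under violet light, while light moved it by 0.02 and 0.17. Its other probe went the other way under normal light (0.60) and was level under violet light (-0.01), so the direction for goggles rests on the probe. SLC17A6, which loads glutamate into synaptic vesicles, had levels of -2.52, -1.99, -1.76 and -1.86. It was lowest in the uncovered normal-light pool, with goggle differences of 0.76 and 0.13, and light differences of 0.54 and -0.10, and its 2 probes lay within 0.19 of each other.

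Carriers of the other transmitters held 6 members, of which SLC6A9 was the one at 2-fold. SLC6A9 takes up glycine and thereby ends glycinergic signals. Its levels were -2.18, -1.41, -1.08 and -1.09, so the uncovered normal-light pool was lowest and the covered pools were alike. It was higher by 1.10 (2.15-fold) with goggles under normal light and by 0.33 under violet light. A far brighter probe of the same gene was left out because its spot on the covered normal-light array carried an outlier mark. That probe had levels of 5.59, 5.68, 5.35 and 5.45 and goggle differences of -0.24 and -0.23, so with it SLC6A9 would be slightly lower in covered eyes in both lights. In the same pools, the summed signal of 5 bipolar and amacrine markers was 69.5, 79.2, 80.1 and 79.6, and their part in the SLC6A9 values was not tested.

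The monoamine carriers were both lowest under violet light in their brightest probe. SLC6A4, which takes up serotonin, had levels of -5.07, -5.58, -5.24 and -5.63, and SLC6A2, which takes up noradrenaline, of -3.50, -3.83, -3.68 and -4.10. The light differences were -0.51 and -0.39 for SLC6A4 and -0.33 and -0.42 for SLC6A2. Ranked by the smaller of the values in the 2 eyes, these were the lowest members, ahead of SLC25A4, and all 4 values were under 2-fold. SLC6A2 had 1 probe, and the second probe of SLC6A4 gave 0.10 in uncovered and -0.37 in covered eyes, with its lowest level in the uncovered normal-light pool. By the labels of the value table, these are pools of uncovered eyes below pools of covered eyes. The cholinergic pair showed light differences of the opposite sign. SLC5A7, which brings choline into the nerve ending, gave 0.60 and 0.19, and SLC18A3, which fills vesicles with acetylcholine, gave 0.17 and 0.15. Both genes were lowest in the uncovered normal-light pool, so goggles under normal light also gave a difference above 0. SLC18B1, a vesicular polyamine carrier, was level in its brighter probe (0.12 and 0.27 for goggles), while its dimmer probe gave 1.22 and 0.67.

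Among the 6 carriers of glucose and other sugars, the main glucose carrier of the blood-retina barrier, SLC2A1, was level. Its levels were 3.45, 3.32, 3.19 and 3.34, with goggle differences of -0.26 and 0.02 and light differences of -0.13 and 0.15. SLC2A14 had levels of -0.49, -0.06, -0.03 and 0.23 in its brightest probe, with 0.46 and 0.29 for goggles and 0.43 and 0.26 for light. Its other 3 probes gave -0.28 to 0.01 for goggles under normal light and -0.07 to 0.06 under violet light, so the goggle values rest on 1 probe, while all 4 probes were above 0 for light in both eyes. SLC2A8, an intracellular hexose carrier, differed by -0.40 and -0.17 for goggles in its brightest probe. Of its 4 probes, 3 gave -0.40 to -0.41 under normal light and the dimmest gave 0.64. SLC37A4, which brings glucose-6-phosphate into the endoplasmic reticulum, and SLC37A3 stayed within 0.31 of 0 in all comparisons.

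SLC45A2, placed here by the sugar-carrying family it belongs to, is a melanosome protein needed for pigment. Its levels were -4.49, -3.49, -3.16 and -3.51. The uncovered normal-light pool stood below the other 3, which lay between -3.51 and -3.16, giving 1.32 (2.51-fold) for goggles under normal light, 1.00 for violet light in uncovered eyes, and -0.03 and -0.35 in the other comparisons. Of the 6 pigment cell markers none reached 2-fold for goggles under normal light (-0.47 to 0.62), while TYR was lower by 1.22 for goggles under violet light, and their summed signal was 28.8, 27.4, 36.2 and 27.5. The other melanosome carrier, the exchanger SLC24A5, was level, at 1.65, 1.53, 1.64 and 1.60. SLC45A2 had 1 probe, so its low value in that pool has no check by another.

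Of the 5 amino acid carriers, SLC38A4 was the one at 2-fold. SLC38A4 is a sodium-coupled carrier of neutral amino acids, and its levels were -4.13, -4.76, -5.53 and -4.73. The covered pool was lower by 1.40 (2.64-fold) under normal light, while the pools of the violet light were alike (0.03), and with light differences of -0.63 and 0.80. The light-by-goggle difference, the goggle difference under violet minus that under normal light, was 1.43, the most positive of the 77, and it has the same value under both sets of labels. After normexp background correction, which adds a fixed offset to every spot, its goggle difference under normal light was 0.05. Quantile normalization gave -1.83 and median scaling -1.72 for the same comparison. Its second, dimmer probe was well above background on 2 of the 4 arrays only and was left out. SLC7A5, the carrier of large neutral amino acids at blood-tissue barriers, lay between 0.48 and 0.62 in all pools. SLC38A1, a glutamine carrier, lay between 0.05 and 0.22. The cystine carrier SLC7A9 was higher in covered eyes (0.43 and 0.33, and 0.58 and 0.08 in its dimmer probe). SLC7A1, which carries cationic amino acids, differed by 0.26 and 0.04, and by 0.95 and -0.23 in its dimmer probe.

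All 5 monocarboxylate carriers stayed under 0.4 in every comparison in their brightest probe. SLC16A8, the lactate carrier of the pigment epithelium's choroidal face, had levels of 3.36, 3.56, 3.62 and 3.66. SLC16A1, a lactate carrier of many cells, had levels of 5.66, 5.72, 5.94 and 5.92. In both genes the covered pools lay above the uncovered ones, by 0.26 and 0.10 for SLC16A8 and by 0.29 and 0.20 for SLC16A1. The dimmer probe of SLC16A8 gave 0.85 and 0.18, and the 4 probes of SLC16A1 spread from 0.29 to 1.29 under normal light. SLC16A3, the lactate exporter of glycolytic cells, differed by 0.17 and 0.03, SLC16A7 by -0.39 and -0.06 and SLC16A9 by 0.17 and 0.14. The class medians were 0.17 and 0.10 for goggles and 0.06 and 0.02 for light.

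The 12 ion carriers included the gene at 2-fold for goggles in both lights. SLC9A9 exchanges sodium for protons in endosomes, and its levels were -2.44, -1.99, -3.70 and -3.40. Both covered pools lay below both uncovered pools, by 1.26 (2.40-fold) under normal and 1.41 (2.66-fold) under violet light, and violet light gave 0.45 and 0.30. The pair of arrays whose labels agree in both sources differed by -1.71 (covered normal minus uncovered violet), the lowest value of the 77. Its second probe did not show this, with levels of -3.89, -4.25, -3.90 and -4.00 and goggle differences of -0.01 and 0.26. The mean of both probes was -0.64 and -0.58, and after normexp correction the gene read -0.61 and -0.95, so neither setting kept a 2-fold difference in either light. Normexp adds a fixed offset to every spot, which shrinks differences between dim signals, so that value is no separate check. Quantile normalization gave -1.61 and -1.54 and median scaling -1.58 and -1.52, past 2-fold in both lights.

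The Golgi exchanger SLC9A8 differed by -0.51 and -0.13 for goggles in its brighter probe and by 0.93 and 0.40 in its dimmer one. SLC9A2 had 1 probe and differed by -0.59 and -0.24.

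Of the exchangers that clear calcium from photoreceptors, SLC24A2, the cone type, was lower in covered eyes in both lights (-0.40 and -0.47). Its levels were 5.05, 5.10, 4.64 and 4.63, so the uncovered pools were alike and the covered pools were alike, and its 2 probes lay within 0.09 of each other. The cone channel subunit CNGA3 and the cone phosphodiesterase PDE6C differed by -1.06 and -0.99, and by -0.88 and -0.61, while the cone transducin GNAT2 differed by 0.22 and 0.19 and the cone arrestin ARR3 by -0.13 and -0.46. The red cone pigment OPN1LW was higher by 1.51 and 1.36. The summed signal of the 5 photoreceptor markers was 270, 322, 314 and 343, and its part in the SLC24A2 values was not tested. Under the table's labels the SLC24A2 values are normal minus violet light, so the gene would be higher under violet light, by 0.40 in the covered pair and 0.47 in the uncovered pair.

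The rod exchanger SLC24A1 ran in opposite directions in the 2 lights, at -0.54 and 0.31 for goggles, with levels of -0.83, -1.26, -1.36 and -0.95 from 1 probe. The phosphate carrier SLC34A2 was higher in covered eyes by 0.70 and 0.48, and its second passing probe gave 1.14 and 0.16 and put the covered violet-light pool 1.70 below the covered normal-light pool, where the first gave -0.08. The potassium-chloride cotransporter SLC12A7 stayed within 0.35 of 0 in its brightest probe. The anion exchanger SLC4A2 differed by 0.38 and 0.16 for goggles, SLC26A6 by -0.29 and 0.18 and SLC26A5 by -0.04 and 0.20. Over the class, 9 of 12 members were lower in covered eyes under normal light (median -0.32) and 5 of 12 under violet light (median 0.11), where 48.1% and 41.1% of all genes were lower.

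**Figure D3:**
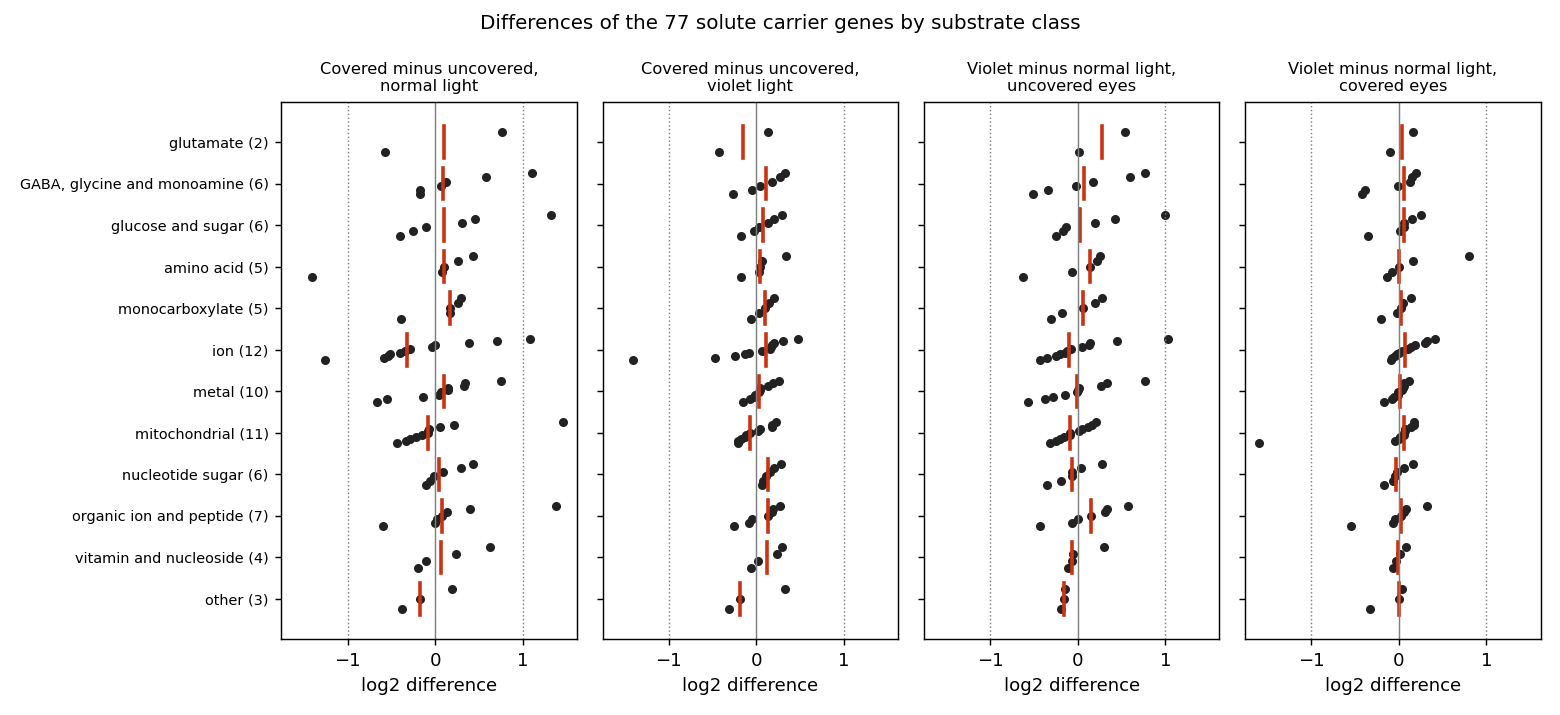
Log2 difference of each of the 77 solute carriers (black points) by substrate class (rows, number of genes in brackets), 1 panel for each comparison under the scanner labels; red bars are class medians and dotted lines mark 2-fold. Class medians lie between -0.32 and 0.28, and no class has more than 1 gene beyond 2-fold on one side of a panel.

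None of the 10 metal carriers reached 2-fold in its brightest probe. SLC11A2, which takes up iron and other divalent metals, had levels of -3.19, -2.42, -2.45 and -2.45, with the uncovered normal-light pool alone low (0.75 for goggles under normal light and 0.77 for light in uncovered eyes). SLC11A1, the metal carrier of phagosomes in macrophages, was at -2.67, -3.24, -3.33 and -3.39 in its brightest probe, with the uncovered normal-light pool highest. Its other 2 probes went the other way, at 0.15 and 0.25 for goggles under normal light against -0.66. The summed signal of the 2 measured leukocyte markers was 7.11, 5.34, 6.69 and 5.03, and their part was not tested. The iron exporter SLC40A1 was level in its brightest probe (0.06 and 0.26 for goggles), and its 4 probes spread from 0.06 to 1.29 under normal light. The zinc carriers of the secretory pathway gave -0.56 and -0.07 for SLC30A5, 0.33 and 0.04 for SLC30A6 and 0.34 and 0.13 for SLC30A7. SLC39A9 differed by -0.14 and 0.04 (its 2 dimmer probes by 0.78 and 1.09 under normal light) and SLC39A13 by 0.15 and 0.19, both of the family that brings zinc into the cytosol.

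Of the 11 mitochondrial carriers, SLC25A4 stood out. It exchanges ADP for ATP across the inner membrane and is the main form in heart and skeletal muscle. Its levels were 0.41, 0.10, 1.87 and 0.27, so the covered normal-light pool alone was high and the other 3 lay between 0.10 and 0.41. The goggle difference was 1.46 (2.76-fold) under normal and 0.18 under violet light, and violet light gave -0.31 in uncovered and -1.60 (3.04-fold lower) in covered eyes. Of its 3 probes, another gave 1.55 and -1.64 for the 2 comparisons at 2-fold, and the dimmest gave 0.41 and -0.89. The covered normal-light array has the same label in both sources, and it exceeded the uncovered violet-light array by 1.78.

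Striated muscle genes moved with SLC25A4 in the comparisons where it reached 2-fold. Of the 9 measured muscle markers, 8 were at least 2-fold higher in the covered pool under normal light and the covered violet-light pool was at least 2-fold below it in 8, and their summed signal was 24.4 times the 75th percentile in the covered normal-light pool against 0.65 to 2.34 in the other 3. Under violet light, 7 of the 9 were also at least 2-fold higher in the covered pool (median 1.85), where SLC25A4 differed by 0.18. The part of these markers in the SLC25A4 values was not tested. SLC25A6, another ADP/ATP carrier, had levels of 2.83, 3.04, 2.76 and 2.83, and the phosphate carrier SLC25A3 had levels of 3.10, 3.12, 3.15 and 3.15, so neither was high in the covered normal-light pool. The 2 ADP/ATP carriers are similar in sequence, and cross-hybridisation between them was not tested.

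The other mitochondrial carriers lay within 0.43 of 0 in their brightest probe. The aspartate-glutamate carrier SLC25A13 differed by -0.33 and -0.17 for goggles (0.58 and 0.15 in its dimmer probe), the folate and flavin carrier SLC25A32 by -0.22 and -0.21 and SLC25A46 by -0.43 and -0.12. SLC25A26, which brings in S-adenosylmethionine, differed by 0.22 in both lights, and the ornithine carrier SLC25A15 by -0.08 and 0.18. The glutamate carrier SLC25A22 (-0.29 and -0.07) and the pyrimidine nucleotide carrier SLC25A36 (-0.16 and 0.01) each had a dim probe that gave 1.29 and 1.42 under normal light.

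Among 7 carriers of organic ions, SLCO1C1, which takes up thyroxine at blood-brain barriers in mammals, had levels of -2.39, -1.82, -1.01 and -1.55. The 2 normal-light pools were at the ends and the violet-light pools between them, so that goggles gave 1.38 (2.61-fold) under normal and 0.27 under violet light, and violet light gave 0.57 in uncovered and -0.54 in covered eyes. The summed signal of 6 endothelial markers was 5.75, 4.29, 5.52 and 4.35, lower in both violet-light pools. Taken singly, 5 of the 6 were down by 2-fold or more for violet minus normal light, in uncovered and covered eyes alike. The medians of the 6 were -1.47 and -1.51. KDR, the brightest of them, differed by -0.11 and -0.13. The part of these markers in the SLCO1C1 values was not tested. The prostaglandin carrier SLCO2A1 differed by -0.60 and -0.09 for goggles. SLCO4A1 was level in its brightest probe (0.08 and 0.18), while its 4 dimmer probes gave 0.89 to 1.40 under normal light. SLC22A4 differed by 0.40 and 0.13, and SLC10A7 and the efflux carriers SLC47A1 and SLC47A2 stayed within 0.32 of 0 in their brightest probe. The dimmer probes of SLC10A7 gave 0.62 and 0.90 for goggles under normal light, and 0.57 and 0.51 for light in uncovered eyes.

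The remaining classes held small differences. The nucleotide-sugar class includes carriers that feed the Golgi with sugars for glycosylation. All 6 of its members were higher in covered eyes under violet light, by 0.07 to 0.28 in their brightest probe. In that comparison 58.9% of all genes were above 0. For goggles, SLC35A3 gave 0.29 and 0.28 and SLC35E3 gave 0.43 and 0.11. The 4 probes of SLC35E3 ran from -0.28 to 0.96 under normal light. The vitamin carriers gave 0.24 and 0.23 for the folate carrier SLC19A1 and -0.20 and -0.06 for the ascorbate carrier SLC23A2. Other probes gave -0.03 to 0.34 for SLC19A1 and 0.08 and 0.27 for SLC23A2 under normal light. The lysosomal SLC46A3 gave 0.62 and 0.29, and its dimmer probe 0.03 and 0.00. Outside these classes, SLC17A5, which exports sialic acid from lysosomes, differed by 0.19 and 0.33, the vesicular nucleotide carrier SLC17A9 by -0.17 and -0.32 and the heme carrier SLC48A1 by -0.37 and -0.18, where its dimmer probe gave 0.70 and 0.19.

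Probes of the same gene did not always agree. Of 45 members with at least 2 passing probes, 14 (31.1%) had probes at least 2-fold apart in some comparison, against 23.7% of 3125 genes. Of these 14, 13 were apart for goggles under normal light, 2 for light in uncovered eyes and 1 each for the comparisons without the uncovered normal-light array. Of the 741 genes apart among all 3125, 707 were so for goggles under normal light and 277 for light in uncovered eyes. For goggles under violet light 28 were, and for light in covered eyes 30. In 9 of the 14 the probes gave opposite signs in the comparison where they lay furthest apart, a count not made for all genes. Over all 45, probes of a member differed in sign in 20 for goggles under normal light, 22 for goggles under violet light, 28 for light in uncovered eyes and 18 for light in covered eyes (44.4%, 48.9%, 62.2% and 40.0%, against 51.5%, 47.1%, 49.0% and 41.9% of all such genes). The median gap between a member's highest and lowest probe was 0.60 for goggles under normal light and 0.39 for light in uncovered eyes, against 0.25 for goggles under violet light and 0.13 for light in covered eyes. Over all 3125 genes the median gaps were 0.52, 0.34, 0.23 and 0.12 in the same order.

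The gaps ran with brightness. For goggles under normal light, the dimmest probe of a member gave a higher value than the brightest in 33 of 45, with medians of 0.45 for the dimmest and 0.06 for the brightest probes. Light in uncovered eyes gave 33 of 45 as well, with 0.26 and 0.01, and goggles under violet light gave 30 of 45, with 0.17 and 0.07. Light in covered eyes gave 22 of 45, with 0.02 and 0.004. Over all 3125 genes with at least 2 passing probes, the dimmest probe was higher in 65.2% for goggles under normal light, 66.8% for light in uncovered eyes, 57.9% for goggles under violet light and 44.7% for light in covered eyes. The shares were highest in the comparisons that use the uncovered normal-light array, and goggles under violet light, which do not use it, leaned the same way. Between genes, the rank correlation of level with difference over the 77 members was -0.13 for goggles under normal light. For light in uncovered eyes it was -0.05 (-0.11 and 0.06 over all genes). SLC45A2, SLC6A9 and SLCO1C1, lowest on that array among the genes plotted by level, were each measured by 1 passing probe. The part of brightness in their values was not tested.

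**Figure D4:**
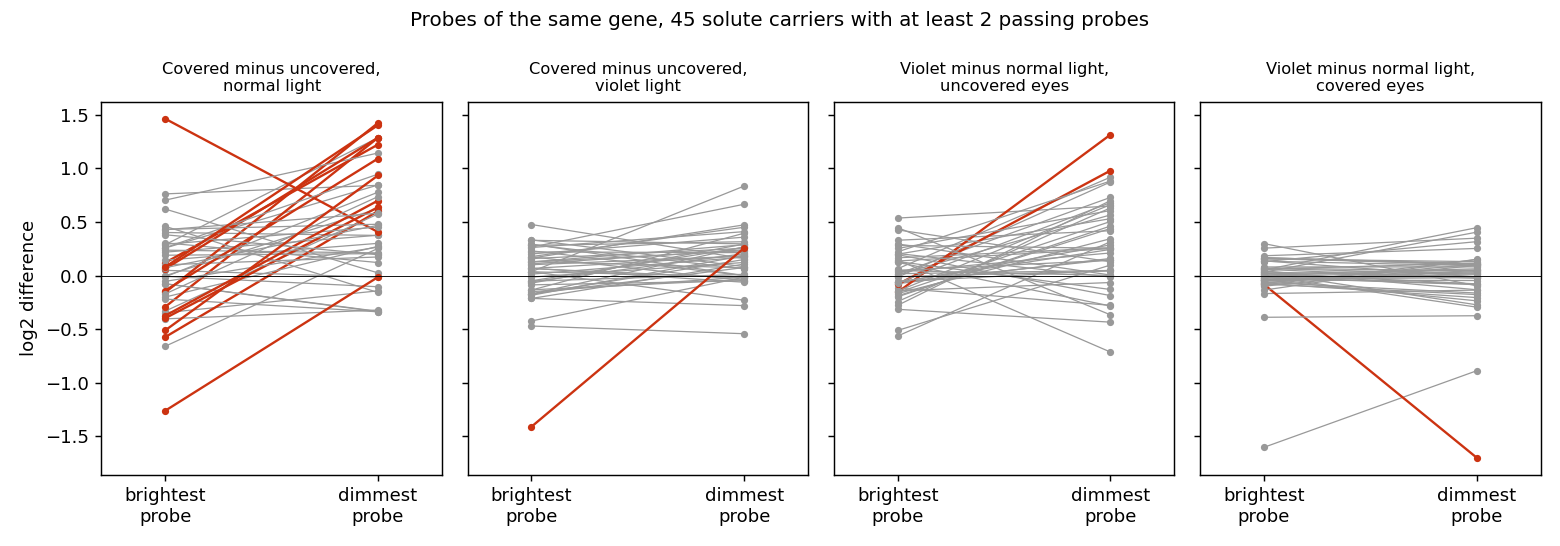
Log2 difference given by the brightest and the dimmest passing probe of each of 45 solute carriers (1 line per gene, red where these probes are at least 2-fold apart), 1 panel for each comparison under the scanner labels. Most lines slope upwards for goggles under normal light and for light in uncovered eyes, the comparisons that use the uncovered normal-light array, with the dimmest probe above in 33 of 45 genes in each, against 30 for goggles under violet light and 22 for light in covered eyes.

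The 8 members that did not pass were SLC15A1, SLC22A5, SLC22A7, SLC26A3, SLC2A2, SLC35D2, SLC7A2 and SLC9A3. SLC26A3, SLC35D2, SLC7A2 and SLC9A3 were not well above background on any array. In the brighter of its probes (the other was well above background on no array), the peptide carrier SLC15A1 was well above background in the uncovered normal-light and covered violet-light pools alone. The first of these was at least 1.68-fold above the uncovered violet-light pool and at least 1.31-fold above the covered normal-light pool, and the second at least 1.40-fold and at least 1.09-fold above them. Such bounds set the measured pool against the higher of the dim pool's own signal and the lowest signal well above background on that array. The carnitine carrier SLC22A5 passed in the covered violet-light pool alone, at least 1.75-fold above the uncovered violet-light pool and at least 1.47-fold above the covered normal-light pool. In its brighter probe, the organic anion carrier SLC22A7 missed background in the covered normal-light pool alone, and its other probe was well above background on no array. The glucose carrier SLC2A2 missed it in the covered violet-light pool alone in its brighter probe, where the covered normal-light pool was at least 1.28-fold higher. Its other probe was well above background in the uncovered normal-light pool alone.

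Genes that work with these carriers were followed in a separate list of 34, of which 15 were measured. For goggles under normal light 1 of the 15 was at least 2-fold higher (4.68% of all genes were), the hexokinase HK2 (1.40), which traps glucose in the cell. HK2 was also the one at 2-fold for light in uncovered eyes (1.31, where 1.23% of all genes were higher). Its levels were -1.34, -0.03, 0.07 and 0.46, lowest in the uncovered normal-light pool. None was at least 2-fold lower in any of the 4 comparisons. BSG, the partner that brings monocarboxylate carriers to the membrane, differed by 0.21 and 0.08 for goggles. GLUL, the glutamine synthetase of Mueller glia, differed by 0.80 and 0.23 for goggles and by 0.55 and -0.02 for light.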

How the data were processed

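Single-colour (Cy3) arrays were quantified in Agilent Feature Extraction 11.5.1.1, which the submitters' processing notes and the file headers name. The deposited intensity per spot is background-subtracted and not scaled between arrays, and the deposited 0 or 1 marks (another unit) tell saturated, outlying and well-measured spots apart. Each column of the authors' deposited value table has a median intensity of 218.15 on a linear scale, and how it was scaled is not stated. With 100 ng of RNA labelled per pool, no spot was saturated.

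Spots of a probe were averaged (43603 probes) on the log2 scale, minus the array's 75th percentile, in R 4.3.3 with limma 3.58.1 and Python 3.11.15. The steps were tested on simulated data in which all probes of a gene moved alike, which does not cover probes that disagree. Accessions matched RefSeq genes of GRCg7b for 11711 probes. A probe passed if well above background on all 4 arrays with no outlier mark or saturation (35407 probes). A gene takes its passing probe of highest mean signal. With 1 array a group no test was made, and 2-fold differences were counted. The files state an older build, so no coordinates are given. Normexp used the median spot signal (offset 50), as the mean is not among the columns. Members, lists, substrate classes and the rule for named genes (largest differences, largest probe gaps, the top of each class and carriers with a retinal role) were chosen with earlier results of these data known. Partner genes named after a carrier were left out. Some genes that entered the counts are not reported here.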

Additional observations from a re-analysis of the deposited data

How the results depend on the processing

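Counts of carriers at least 2-fold higher and lower are given here for goggles under normal light, goggles under violet light, light in uncovered eyes and light in covered eyes, where the main values were 5 and 2, 0 and 1, 2 and 0, and 0 and 1. With the labels of the value table they were 1 and 0, 0 and 2, 1 and 0, and 2 and 5, with none lower for goggles in both lights and 1 higher for light in both eyes. The value table under its own labels gave 1 and 0, 0 and 0, 1 and 0, and 3 and 2, again with none for goggles in both lights and 1 higher for light in both eyes. Quantile normalization gave 2 and 3, 0 and 1, 0 and 0, and 0 and 1, as did the value table under the scanner labels, an alternative chosen after seeing the data. Scaling to the median, under which all genes had a median of -0.30 for goggles under normal light, gave 3 and 2, 0 and 1, 0 and 0, and 0 and 1. After normexp correction the counts were 5 and 0, 0 and 0, 0 and 0, and 0 and 1, with none for goggles in both lights. The mean of probes gave 5 and 1, 0 and 0, 2 and 0, and 0 and 1, and SLC9A9 then left the count for both lights, which became 0. Without a filter on dim probes 85 carriers gave 7 and 3, 1 and 1, 3 and 1, and 1 and 1. The 31 carriers whose probes agree, also chosen after seeing the data, gave 0 in every count. Every carrier at 2-fold had 1 passing probe or probes 2-fold apart, so that set could not hold any of them. Keeping spots with an outlier mark, likewise added later, left 4 higher for goggles under normal light, since SLC6A9 then read -0.24.

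Among the 6 carriers at 2-fold that are described singly, the sign turned only in SLC6A9 and SLC38A4. In the value table with its own labels SLC6A9 read -0.0017 for goggles under normal light. SLC38A4 read 0.047 after normexp correction, against -1.83 after quantile normalization and -1.72 after median scaling. After normexp correction, quantile normalization and median scaling, SLC45A2 read 0.82, 0.78 and 0.83 for light in uncovered eyes, under 2-fold in each. For goggles under normal light it read 1.26, 0.92 and 1.00. In the same order SLC6A9 read 1.18, 0.89 and 0.78 for goggles under normal light, while SLCO1C1 stayed past 2-fold. The cause of these shifts was not tested. SLC25A4 stayed past 2-fold in both of its comparisons in every alternative that kept it, and the one limited to agreeing probes left it out. Naming by the array design's gene names was not run, since that column is not in the files used here. No paired analysis was possible because each group has 1 array. With 1 array a group, the precision of every value is limited by the number of arrays, and dim probes such as that of SLC38A4 lie closest to the background.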
